A study of Mus musculus with 7 samples.

Results

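The subunits of the mitochondrial respiratory chain and ATP synthase were examined as messenger RNAs, and they were taken by gene name from both genomes that encode them. Nuclear members had names beginning with Nduf followed by a, b, c, s or v and a number (complex I), Sdha to Sdhd (complex II), Uqcr (complex III), Cox4 to Cox8 (complex IV) or Atp5 (complex V, the ATP synthase). Mitochondrial members were the mt-Nd, mt-Cytb, mt-Co and mt-Atp genes. Ndufa4l2 was left out, and nuclear genes entered with their protein-coding transcripts only. The rule gave 92 of 16143 genes, 79 of them nuclear and 13 mitochondrial, and 2 further matching names were pseudogenes without a coding transcript. All 92 had at least 1 TPM (transcript abundance scaled for length and library total) in at least 3 libraries, as did 12002 genes in all.

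The cells came from ICR mouse retinas of embryonic day 17.5 that received by electroporation either a plasmid for a hairpin against Kmt2f (shKmt2f, n = 4 libraries) or a control plasmid (n = 3 libraries). An EGFP plasmid was given together with either. The explants were kept for 2 days before EGFP-positive cells were sorted, and SMART-Seq v4 cDNA was made from 1 ng of RNA. Kmt2f is an alias of Setd1a, the catalytic subunit of a histone H3 lysine 4 methyltransferase. The knockdown is transient, each group is a pool of whichever retinal cells took up the plasmid, and the labels do not say whether the libraries came from different animals or cultures. The p-values therefore cover only the spread seen among these libraries, and that spread may be technical.

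Electrons from NADH enter the chain at complex I and those from succinate at complex II, pass through coenzyme Q to complex III and through cytochrome c to complex IV, and the proton gradient built on the way drives complex V. The mitochondrial genome encodes a small core of membrane subunits of complexes I, III, IV and V on long precursor RNAs that are cut at intervening tRNAs, while the other subunits and the whole of complex II come from nuclear genes that each have a promoter of their own. Photoreceptors and other retinal neurons are known for a high demand for ATP.

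Between 11175 and 11837 genes per library reached 1 TPM, and no depth can be given for TPM values. The Setd1a transcript of 6487 bases was at 0.407, 0.328, 0.374 and 0.432 TPM in the shKmt2f libraries and at 0.767, 0.959 and 0.764 TPM in the control libraries. The groups did not overlap (exact permutation test, two-sided, p = 0.0286, the smallest that 35 splits can give). Markers of retinal neurons and photoreceptors summed to between 2262 and 2782 TPM in shKmt2f libraries and between 1227 and 1623 TPM in control libraries, with 11 of 24 tested genes higher and 0 lower by limma's test on all genes (0 lower at an unadjusted p under 0.05 as well), where 11% of all genes were called higher and 3.63% lower. Mitosis genes summed to between 356 and 546 TPM in shKmt2f libraries and between 873 and 938 TPM in control libraries, with 11 of 22 lower and 0 higher (0 higher at an unadjusted p under 0.05 as well). Retinal progenitor genes summed to between 1417 and 1591 TPM in shKmt2f libraries and between 1589 and 1935 TPM in control libraries, which overlapped. Of these 20 genes 4 were lower and 0 higher (1 higher at an unadjusted p under 0.05). Cell makeup itself was not measured, and the part of any difference in it in the values given here was not tested. In such bulk samples fewer cells of a type and less RNA per cell cannot be told apart.

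Overlaps between mitochondrial genes and their base composition bear on their values and are shown in sequence (GRCm38, plus strand). The coding sequences of mt-Atp8 (chrM:7766-7969, 204 bases) and mt-Atp6 (chrM:7927-8607, 681 bases) share 43 bases, given in capitals in the mt-Atp8 sequence.
mt-Atp8: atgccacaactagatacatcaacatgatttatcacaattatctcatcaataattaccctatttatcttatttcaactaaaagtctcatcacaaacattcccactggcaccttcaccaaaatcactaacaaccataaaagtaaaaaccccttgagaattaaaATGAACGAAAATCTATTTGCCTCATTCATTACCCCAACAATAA
The mt-Nd4l sequence (chrM:9877-10173, 297 bases) likewise shares its last 7 bases, in capitals, with mt-Nd4 (chrM:10167-11544).
mt-Nd4l: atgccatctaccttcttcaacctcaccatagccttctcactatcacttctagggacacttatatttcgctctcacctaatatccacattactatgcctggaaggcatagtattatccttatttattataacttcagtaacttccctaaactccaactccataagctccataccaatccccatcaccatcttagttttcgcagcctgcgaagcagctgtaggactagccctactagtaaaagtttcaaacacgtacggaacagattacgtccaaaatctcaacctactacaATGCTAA
Reads from the shared bases cannot be assigned to a single gene. Both sequences are poor in G and C, with a GC content of 31.9% for mt-Atp8 and 41.1% for mt-Nd4l. The GC content of the 13 mitochondrial genes lay between 31.9% and 41.1%, and that of the 79 nuclear members between 40.9% and 61.2%.

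The summed nuclear transcripts tended lower and the summed mitochondrial transcripts higher in the knockdown cells. The 79 nuclear members summed to 11080, 9768, 11717 and 11257 TPM in the shKmt2f libraries and to 14562, 11621 and 12470 TPM in the control libraries. The groups overlapped, since control replicate 2 lay just under shKmt2f replicate 3, and the difference of the mean log2 sums was -0.23. The 13 mitochondrial members summed to 41419, 35502, 33452 and 36768 TPM in the shKmt2f libraries and to 24896, 30206 and 17654 TPM in the control libraries. Every shKmt2f library was above every control library, with a log2 difference of 0.63. The nuclear sum was on average 1.10% of the TPM of a shKmt2f library and 1.30% of that of a control library. The mitochondrial sum was on average 3.71% of a shKmt2f library and 2.44% of a control library.

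The ratio of the nuclear to the mitochondrial sum, which no scaling of a whole library can move, was 0.268, 0.275, 0.350 and 0.306 in the shKmt2f libraries and 0.585, 0.385 and 0.706 in the control libraries. The shKmt2f ratios were all lower, with a log2 difference of -0.86, and the control ratios spanned far more than the gap between the groups. After a correction of each library for the GC content of its transcripts the ratios were 0.360, 0.337, 0.427 and 0.427 in the shKmt2f libraries and 0.380, 0.442 and 0.364 in the control libraries. The groups then overlapped and the log2 difference was -0.03. With transcript length added to the correction it was -0.05, and the mitochondrial sum itself then differed by -0.08 on the log2 scale, against 0.63 uncorrected.

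**Figure D1:**
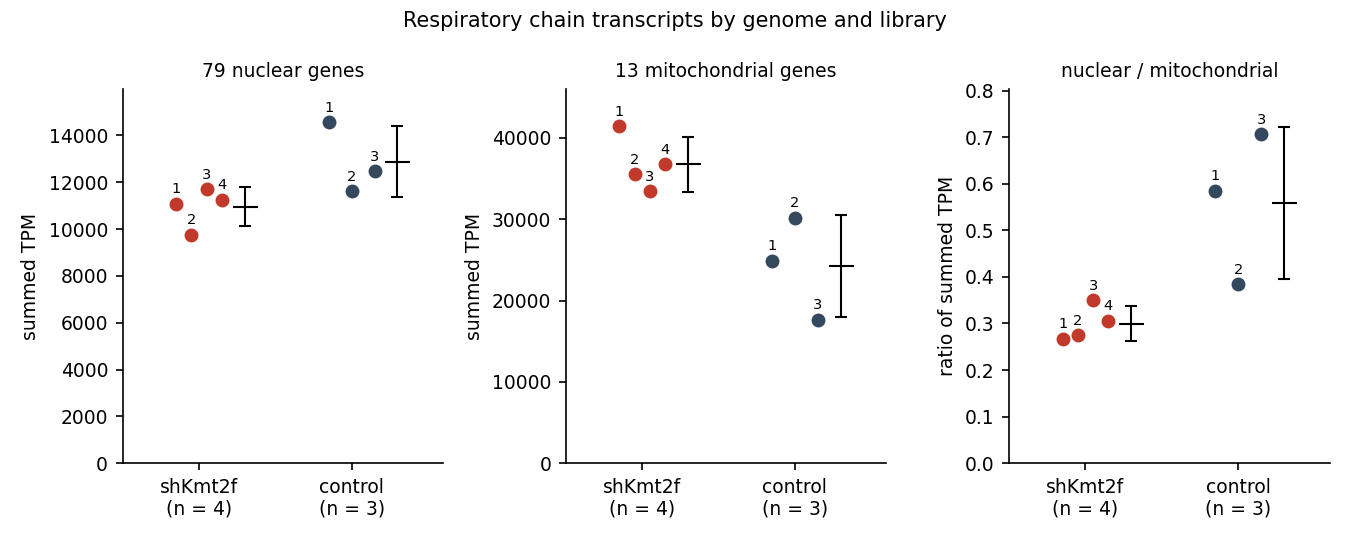
Summed TPM of the 79 nuclear members (left), of the 13 mitochondrial members (middle) and their ratio (right) in each library, with the replicate number above each point and the mean and SD beside each group. The mitochondrial sums and the ratios of the 2 groups are apart, while the nuclear sum of control replicate 2 (11621 TPM) lies among the shKmt2f values.

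Of the 79 nuclear members, 5 fell and 0 rose in limma's test on log2(TPM + 1), with Benjamini-Hochberg adjustment over all 12002 genes and a threshold of 0.05. Over all genes tested 3.63% were called lower and 11% higher, so the count of 5 lower is near the background, while 0 higher is below it. At an unadjusted p under 0.05, 18 of the 79 were lower and 1 higher, against 8.77% and 23.8% of all genes. The mean was lower in shKmt2f cells for 72 of the 79, and the median log2 fold change was -0.22, against 0.10 over all genes tested. In 19 of the 79 every shKmt2f library was below every control library, which held for 9.28% of all genes, and in 1 of the 79 every one was above, which held for 19.9%. The nuclear members are short transcripts, 61 of 79 lying in the quintile of genes with the shortest transcripts, where the median log2 fold change of all genes was -0.09 and 168 of 2400 genes were called lower and 102 higher. Single libraries weighed on these values: control replicate 1 was the highest control for 63 of the 79 and shKmt2f replicate 2 the lowest knockdown library for 58.

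By complex, the nuclear members had a negative median shift in all 5, and no test of a difference between complexes was made. The 36 nuclear genes of complex I had a median log2 fold change of -0.22, the 4 of complex II -0.17, the 8 of complex III -0.33, the 14 of complex IV -0.18 and the 17 of complex V -0.20. The nuclear complex III genes summed to 1699, 1587, 1842 and 1787 TPM in shKmt2f libraries, against 2364, 2016 and 2190 TPM in control libraries. The nuclear complex V genes summed to 2737, 2502, 2747 and 2657 TPM in shKmt2f libraries, against 3434, 2847 and 3085 TPM in control libraries. Only for these 2 of the 5 complexes did the groups not overlap. The lowest and highest sums of complex I were 3620 and 4586 TPM in shKmt2f libraries, against 4393 and 5679 TPM in control libraries.

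**Figure D2:**
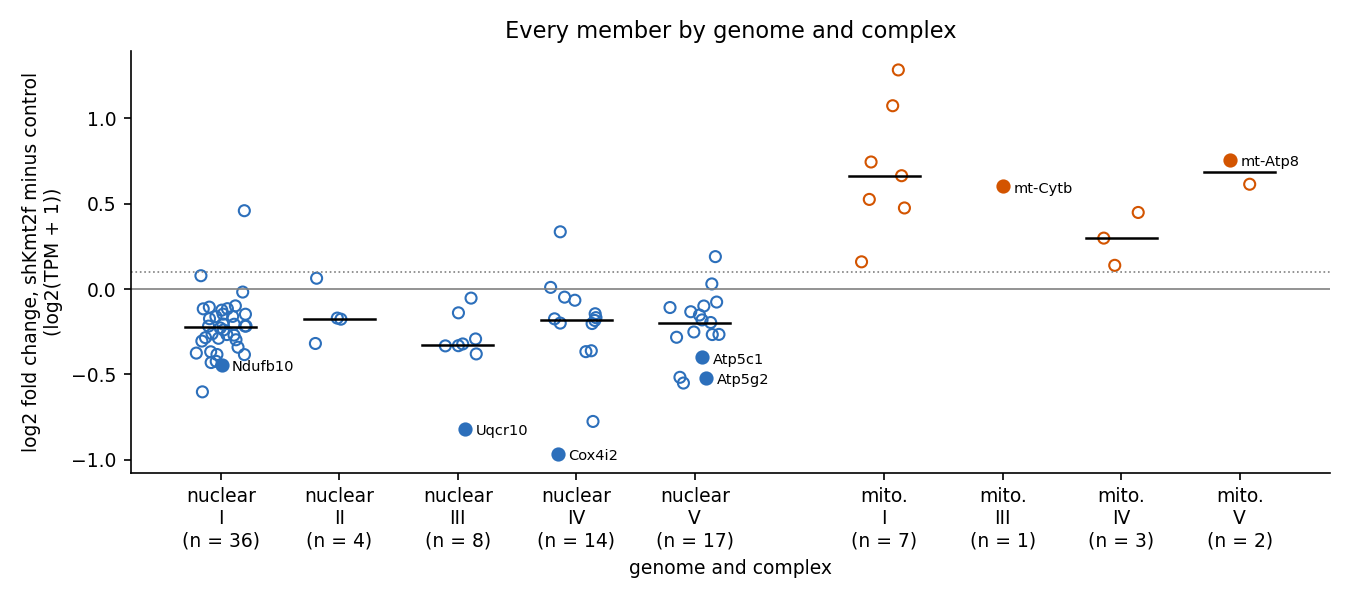
Log2 fold change (shKmt2f minus control, on log2(TPM + 1)) of every member by genome and complex, filled where the adjusted p was under 0.05, with a black bar at the median of each group of 2 or more and a dotted line at the median of all genes tested (0.10). Nuclear members lie mostly under 0 in all 5 complexes, and all 13 mitochondrial members lie above it.

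In complex I the nuclear gene that fell was Ndufb10 (ENSMUSG00000040048, chromosome 17, 24722060 to 24724478, minus strand), an accessory subunit of the membrane arm. It was at 74.6, 67.2, 86.7 and 79.04 TPM in shKmt2f libraries and at 110.2, 106.3 and 97.4 TPM in control libraries. The groups did not overlap, and limma gave a log2 fold change of -0.44 with an SE of 0.11 (adjusted p = 0.0365). With all its transcripts summed the adjusted p was 0.0652, so its call rests on the coding transcripts, which held 65.8% of the gene's TPM. The complex I gene with the largest positive fold change was Ndufs1, which encodes the largest iron-sulfur core subunit and was chosen after its values were seen. It was at 117.0, 115.9, 97.8 and 96.9 TPM in shKmt2f libraries and at 60.5, 95.5 and 79.5 TPM in control libraries. The groups were apart by a narrow margin and the difference of 0.46 ± 0.16 on the log2 scale (SE) missed the threshold (limma adjusted p = 0.0832). The most abundant nuclear complex I name by coding transcripts was Ndufa4, whose protein is now known to sit in complex IV. Its levels of 507, 416, 537 and 509 TPM in shKmt2f libraries overlapped those of 658, 492 and 494 TPM in control libraries (limma adjusted p = 0.507).

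Of the 4 complex II genes, which also serve the citric acid cycle as succinate dehydrogenase, 0 passed limma's test, and 1 was lower at an unadjusted p under 0.05. Sdhc, a membrane anchor and the most abundant of them by coding transcripts, was at 185, 167, 196 and 166 TPM in shKmt2f libraries and at 246, 183 and 243 TPM in control libraries. Control replicate 2 lay among the shKmt2f values (-0.32 ± 0.13 on the log2 scale, SE, limma adjusted p = 0.129).

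In complex III Uqcr10, a small accessory subunit (ENSMUSG00000059534, chromosome 11, 4701973 to 4704342, minus strand), fell. It was at 127, 86.5, 135 and 138 TPM in shKmt2f libraries, against 283, 172 and 197 TPM in control libraries. The groups did not overlap, and the difference was -0.82 ± 0.21 on the log2 scale (SE, limma adjusted p = 0.0376). Uqcrc1, a core protein and the most abundant nuclear complex III member by coding transcripts, was at 429, 594, 457 and 428 TPM in shKmt2f libraries and at 508, 591 and 687 TPM in control libraries. shKmt2f replicate 2 lay among the controls and the test was not passed (limma adjusted p = 0.179).

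In complex IV the gene that fell was Cox4i2 (ENSMUSG00000009876, chromosome 2, 152754173 to 152765037, plus strand), the isoform of subunit 4 known for its induction by low oxygen. It was at 13.01, 10.3, 12.9 and 10.3 TPM in shKmt2f libraries and at 24.1, 31.96 and 16.8 TPM in control libraries. The groups did not overlap, and its difference of -0.97 ± 0.21 on the log2 scale (SE, limma adjusted p = 0.0264) was the most negative of the 79. The common isoform Cox4i1 was at 362, 313, 403 and 373 TPM in shKmt2f libraries and at 488, 345 and 403 TPM in control libraries, which overlapped (limma adjusted p = 0.429). The ratio of Cox4i2 to Cox4i1 was 0.0359, 0.0329, 0.0320 and 0.0276 in shKmt2f libraries and 0.0494, 0.0927 and 0.0417 in control libraries, so it was lower in every knockdown library. Ndufa4l2, a complex IV-associated protein that is likewise known for induction by low oxygen and is no member, also fell. It was at 14.3, 10.02, 7.41 and 5.81 TPM in shKmt2f libraries and at 29.9, 54.7 and 23.9 TPM in control libraries (log2 fold change -1.82, limma adjusted p = 0.0188).

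Both remaining tissue-restricted Cox isoforms were at low levels. Cox6b2, known from testis, was at 6.46, 4.50, 6.17 and 7.48 TPM in shKmt2f libraries and at 13.05, 13.5 and 7.69 TPM in control libraries. The groups did not overlap, and the difference of -0.78 ± 0.23 on the log2 scale (SE) just missed the threshold (limma adjusted p = 0.0516). Cox6b2 passed with all its transcripts summed and not with the GC correction (limma adjusted p = 0.0373 and 0.118). Cox7a1, known from heart and skeletal muscle, was at 1.47, 1.91, 2.58 and 1.88 TPM in shKmt2f libraries and at 3.16, 2.26 and 1.06 TPM in control libraries, which overlapped fully (limma adjusted p = 0.919).

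In complex V 2 genes fell. Atp5c1 (ENSMUSG00000025781, chromosome 2, 10056016 to 10080510, minus strand) encodes the gamma subunit, the rotating central stalk. It was at 193, 172, 195 and 180 TPM in shKmt2f libraries, against 258, 240 and 234 TPM in control libraries. The groups were clearly apart, by -0.40 ± 0.09 on the log2 scale (SE, limma adjusted p = 0.0317). Atp5g2 (ENSMUSG00000062683, chromosome 15, 102662864 to 102672352, minus strand) is 1 of 3 genes for the c subunit of the rotor ring. It was at 56.4, 51.1, 50.7 and 46.9 TPM in shKmt2f libraries and at 90.5, 67.0 and 66.2 TPM in control libraries, without overlap (-0.52 ± 0.13 on the log2 scale, SE, limma adjusted p = 0.0380). The other c-subunit genes, Atp5g1 and Atp5g3, had log2 fold changes of -0.11 and -0.20 and did not pass (limma adjusted p = 0.575 and 0.232), and their ranges overlapped. Atp5b, the catalytic beta subunit and the most abundant nuclear member of complex V by coding transcripts, was at 466, 509, 467 and 433 TPM in shKmt2f libraries and at 506, 472 and 567 TPM in control libraries, which overlapped (limma adjusted p = 0.415). Atp5s and Atp5sl entered by name, although their products are not known as subunits of the enzyme, and neither passed.

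The 5 calls did not hold under every alternative. With the GC correction the limma adjusted p was 0.136 for Ndufb10, 0.0890 for Uqcr10, 0.0541 for Cox4i2 and 0.104 for Atp5g2, so these 4 were no longer called, while Atp5c1 was (limma adjusted p = 0.0264). Atp5c1 in turn was not called with any single shKmt2f library, control replicate 1 or control replicate 3 left out (limma adjusted p of at most 0.0966). It also lost its call with the replicate number as a block (limma adjusted p = 0.0959).

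The promoters of the nuclear genes that fell were read for letters of 3 factors known from respiratory chain promoters. RefSeq windows (GRCm38.p6, from 250 bases before to 50 after a gene's start) matched 64 of the 79 nuclear members. The letters of the factor NRF1, GCGCA and GCGC with any base between them, stood in 17 of the 64 (26.6%), against 5.19% of 27025 genes. The ETS-type letters CCGGAAG, bound by GABPA, stood in 16 (25%), against 9.93%, and the YY1 letters AAGATGGC in 9 (14.1%), against 3.19%. All 3 were read on both strands, and only exact letters counted. The ETS-type and YY1 letters can share at most 3 bases, AAG, and a gene counted once for each motif. Of the 5 genes that fell, Atp5c1 and Atp5g2 held the NRF1 letters, given in capitals, and Uqcr10 held none of the 3 motifs. Atp5c1 has 2 windows in the table, of which the other (chr2:10080461-10080760) held none, and no window of Cox4i2 was used here. The 3 windows are shown because they set a promoter without these letters beside those with them.
Atp5c1 (chr2:10080383-10080682, minus strand): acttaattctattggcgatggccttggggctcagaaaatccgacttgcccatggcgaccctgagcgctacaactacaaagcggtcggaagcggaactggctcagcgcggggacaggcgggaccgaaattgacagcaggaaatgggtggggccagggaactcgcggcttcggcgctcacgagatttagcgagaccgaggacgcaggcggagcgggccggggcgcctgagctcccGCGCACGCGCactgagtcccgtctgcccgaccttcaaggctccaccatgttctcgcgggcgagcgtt
Atp5g2 (chr15:102670998-102671297, minus strand): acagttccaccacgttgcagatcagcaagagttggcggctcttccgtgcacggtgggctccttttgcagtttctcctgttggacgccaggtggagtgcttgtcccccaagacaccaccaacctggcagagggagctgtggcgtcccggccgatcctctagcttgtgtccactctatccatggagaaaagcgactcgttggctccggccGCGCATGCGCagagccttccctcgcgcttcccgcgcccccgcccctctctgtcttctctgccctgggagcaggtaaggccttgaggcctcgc
Uqcr10 (chr11:4704295-4704594, minus strand): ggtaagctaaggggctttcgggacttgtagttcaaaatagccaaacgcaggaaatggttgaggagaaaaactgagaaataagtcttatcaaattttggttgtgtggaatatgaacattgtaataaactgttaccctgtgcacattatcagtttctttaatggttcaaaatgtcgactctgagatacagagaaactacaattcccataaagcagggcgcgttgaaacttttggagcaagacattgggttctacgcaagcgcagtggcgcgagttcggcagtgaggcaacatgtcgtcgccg
The GC content of these windows was 64% for Atp5c1, 63% for Atp5g2 and 43.3% for Uqcr10. The window of Ndufb10 held none of the 3 motifs either. The windows of Uqcr10 and Ndufb10 each held a stretch that differs from the NRF1 letters in a single base, which was not counted.

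The values of several nuclear members rest on few coding reads or on reads shared with copies. Coding transcripts held a mean of 43.1% of the nuclear members' TPM in shKmt2f libraries and 43.9% in control libraries, and under 50% in 25 of the 79 genes, while all 5 genes that fell had more. For Cox7b, a small complex IV subunit, coding transcripts held 0.436% of the gene's TPM, and a short processed transcript of 180 bases averaged 751 TPM. With all transcripts summed the nuclear members came to between 23035 and 26642 TPM in shKmt2f libraries and between 26596 and 33116 TPM in control libraries. Again 5 fell, with Cox6b2 in place of Ndufb10 (limma adjusted p = 0.0373 and 0.0652). Annotated pseudogenes matched 22 of the 79 genes, and for 12 of them the copies held more TPM than the coding transcripts. The largest such case was Cox7c, another small complex IV subunit, with 19.1 TPM over all libraries in its coding transcripts and 4066 TPM in 2 copies. Such genes are uncertain, since reads may have been shared between a gene and its copies. Of the 5 genes that fell by coding transcripts, Atp5c1 had 1 copy with 27.8 TPM and the others had none.

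Of the 13 mitochondrial members, 2 rose and 0 fell, against 11% and 3.63% of all genes called higher and lower, and at an unadjusted p under 0.05 it was 10 higher and 0 lower, against 23.8% and 8.77% of all genes. All 13 had a higher mean in shKmt2f cells, with a median log2 fold change of 0.60 and a range of 0.14 to 1.28, but the groups were apart in 4 of the 13, against 19.9% of all genes. They are transcribed together and so do not count as 13 separate observations. All 13 lie in the quintile of genes with the lowest GC content (27.8% to 44.8%), where the median log2 fold change of all 2400 genes was 0.53 and 767 were called higher. Set against that quintile, the mitochondrial median of 0.60 lay close to what other genes of low GC content showed.

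In complex V mt-Atp8 and mt-Atp6, which encode membrane subunits of the ATP synthase on a shared messenger RNA, were higher in every knockdown library. mt-Atp8 was at 26808, 23532, 21873 and 23751 TPM in shKmt2f libraries and at 14509, 18878 and 10315 TPM in control libraries, and it rose (0.76 ± 0.19 on the log2 scale, SE, limma adjusted p = 0.0346). mt-Atp6 was at 3407, 2703, 2482 and 3220 TPM in shKmt2f libraries, against 2018, 2473 and 1403 TPM in control libraries. The groups of mt-Atp6 were apart by a narrow margin, shKmt2f replicate 3 against control replicate 2, and it did not pass (0.61 ± 0.20 on the log2 scale, SE, limma adjusted p = 0.0658). Per length, mt-Atp8 was listed at between 7.38 and 8.81 times mt-Atp6 in shKmt2f libraries and between 7.19 and 7.63 times in control libraries, although the pair is transcribed as a unit. How the shortness of mt-Atp8 acts on its TPM was not tested. Without mt-Atp8 the mitochondrial sum was 14611, 11970, 11580 and 13016 TPM in shKmt2f libraries and 10388, 11329 and 7339 TPM in control libraries. The groups stayed apart, by a narrow margin between shKmt2f replicate 3 and control replicate 2, and the log2 difference was 0.42.

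In complex III mt-Cytb, the cytochrome b that passes electrons within the complex, rose. It was at 1653, 1462, 1163 and 1489 TPM in shKmt2f libraries and at 962, 1145 and 759 TPM in control libraries (0.60 ± 0.17 on the log2 scale, SE, limma adjusted p = 0.0448). The margin between the groups was narrow, with shKmt2f replicate 3 at 1163 TPM and control replicate 2 at 1145 TPM. Corrected for GC content, mt-Cytb had a log2 fold change of -0.09 and mt-Atp8 one of -0.24, and neither was called (limma adjusted p = 0.741 and 0.407). The called mitochondrial members then numbered 0 of 13.

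The 3 mitochondrial genes of complex IV, which encode the catalytic core of cytochrome c oxidase, had a median log2 fold change of 0.30, the smallest of the 4 complexes with mitochondrial genes. mt-Co1 was at 1028, 860, 787 and 951 TPM in shKmt2f libraries and at 649, 836 and 531 TPM in control libraries. mt-Co2 was at 1739, 1410, 1297 and 1522 TPM in shKmt2f libraries and at 1448, 1458 and 831 TPM in control libraries. All of these ranges overlapped, and the log2 fold changes were 0.45 for mt-Co1 and 0.30 for mt-Co2 (limma adjusted p = 0.0936 and 0.350). mt-Co3 was at 3447, 2708, 3242 and 2543 TPM in shKmt2f libraries and at 3136, 2823 and 2199 TPM in control libraries, and its log2 fold change of 0.14 was the smallest of the 13 (limma adjusted p = 0.582).

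The 7 mitochondrial genes of complex I, membrane subunits of its proton-pumping arm, all missed the threshold, although 6 were higher at an unadjusted p under 0.05, against 23.8% of all genes. mt-Nd1 was at 1704, 1492, 1336 and 1711 TPM in shKmt2f libraries and at 1169, 1295 and 919 TPM in control libraries, and it was the only 1 of the 7 whose groups did not overlap (log2 fold change 0.48, limma adjusted p = 0.0576). mt-Nd2 was at 236, 200, 190 and 219 TPM in shKmt2f libraries and at 141, 212 and 104 TPM in control libraries. The highest control, replicate 2, lay among the shKmt2f values, as it did for mt-Nd4, mt-Nd5, mt-Nd6 and mt-Nd4l. mt-Nd4 was at 349, 306, 269 and 349.6 TPM in shKmt2f libraries, against 171, 295 and 133 TPM in control libraries. mt-Nd5 was at 174, 138, 121 and 164 TPM in shKmt2f libraries, against 53.9, 136 and 45.9 TPM in control libraries. For both, control replicates 1 and 3 were far under every shKmt2f library, and the log2 fold changes were 0.74 for mt-Nd4 and 1.07 for mt-Nd5 (limma adjusted p = 0.0706 and 0.0689).

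mt-Nd4l had the largest log2 fold change of the 13. It was at 273, 240, 168 and 231 TPM in shKmt2f libraries and at 82.1, 195 and 47.6 TPM in control libraries (1.28 ± 0.43 on the log2 scale, SE, limma adjusted p = 0.0841). mt-Nd3 was at 418, 303, 396 and 437 TPM in shKmt2f libraries and at 475, 288 and 298 TPM in control libraries. Its highest value was a control and its log2 fold change was 0.16 (limma adjusted p = 0.624). mt-Nd6, the only member on the minus strand of the mitochondrial genome, was at 184, 149, 131 and 180.2 TPM in shKmt2f libraries and at 83.4, 174 and 69.5 TPM in control libraries (log2 fold change 0.66, limma adjusted p = 0.151). Whether reads were counted by strand is not given in the sources used here, so reads of mt-Nd6 and of RNA from the opposite strand cannot be told apart.

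**Figure D3:**
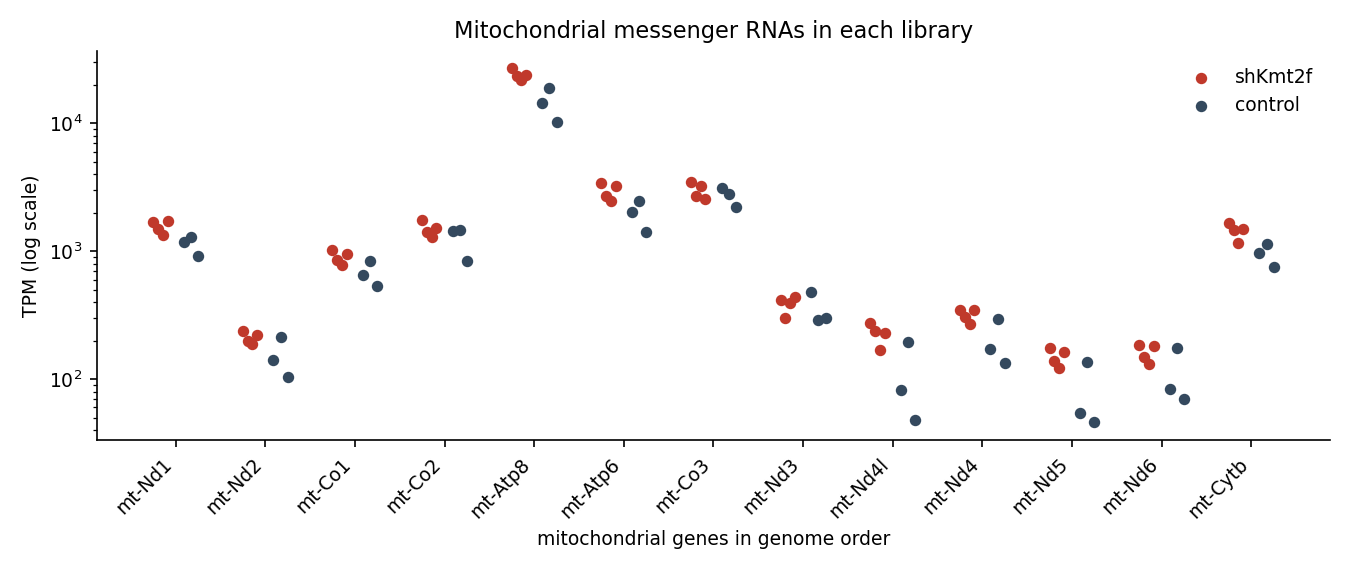
TPM (log scale) of the 13 mitochondrial members in genome order, with 1 point per library. Control replicate 2 is the highest control for 11 of the 13 genes and control replicate 3 the lowest for 12, so the control points spread widely while the shKmt2f points lie close together.

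The control libraries ordered the mitochondrial genes in the same way almost throughout. Control replicate 2 was the highest control for 11 of the 13 genes and control replicate 3 the lowest for 12. Without control replicate 2 the called mitochondrial members numbered 10. With any other single library left out they numbered 0. For the nuclear members the count was 9 without control replicate 2 (8 lower and Ndufs1 higher), 2 without control replicate 3, and 0 when control replicate 1 or any shKmt2f library was left out.

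Nuclear copies of mitochondrial genes were listed with high TPM. A block of annotated pseudogenes on chromosome 1 matched mt-Co1, mt-Co2, mt-Atp6, mt-Co3, mt-Nd3 and mt-Nd4l with identities of 99.7% to 100%. The match covered nearly the whole gene except for mt-Co1, where it spanned 483 of 1545 bases. Its mt-Co1 copy averaged 2028 TPM over all libraries, against 806 TPM for mt-Co1 itself. Reads of such copies and of the mitochondrial genes cannot be told apart. All copies together held 6867, 6051, 5735 and 6891 TPM in shKmt2f libraries and 4809, 5828 and 4408 TPM in control libraries, which overlapped. Their share of members plus copies lay between 14.2% and 15.8% in shKmt2f libraries and between 16.2% and 19.98% in control libraries. Without mt-Atp8, to which no annotated pseudogene was matched, it lay between 31.97% and 34.6% in shKmt2f libraries and between 31.6% and 37.5% in control libraries. Members and copies together summed to between 39188 and 48287 TPM in shKmt2f libraries and between 22062 and 36034 TPM in control libraries. With each copy added to its gene, 4 mitochondrial members were called higher, mt-Atp6 and mt-Nd4l beside the other 2.

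**Figure D4:**
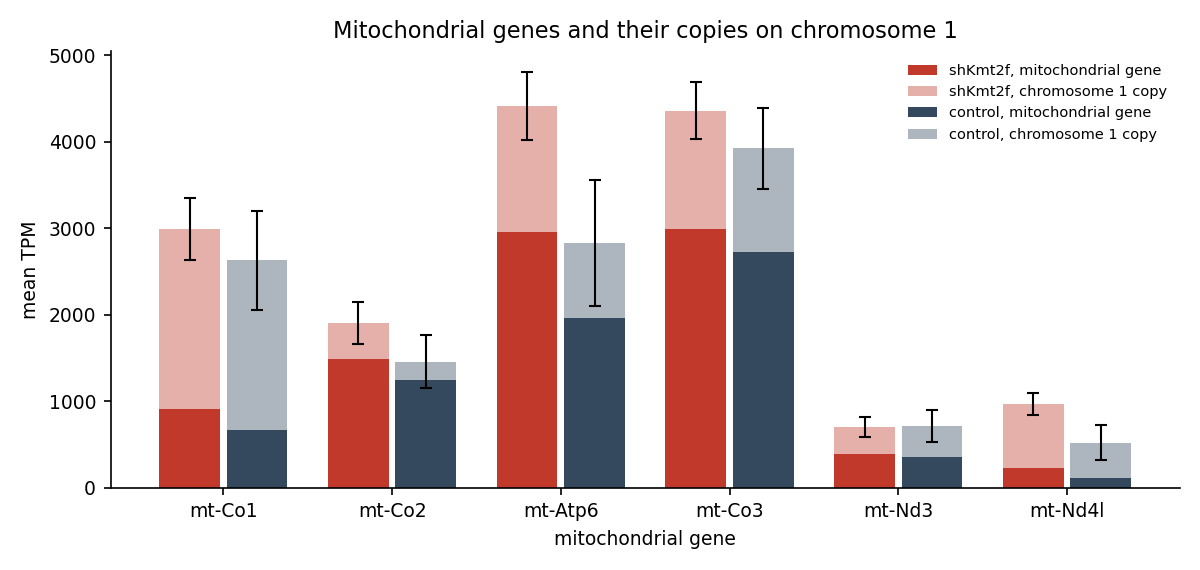
Mean TPM of 6 mitochondrial genes (full colour) with their chromosome 1 copies stacked on top (pale), in shKmt2f (n = 4) and control (n = 3) libraries, with the SD of the stacked total. The copy of mt-Co1 holds more TPM than the gene in both groups, and the stacked totals of mt-Atp6 and mt-Nd4l are higher in shKmt2f cells.

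Within complexes the nuclear to mitochondrial ratio followed the same direction. For complex III it was 1.03, 1.09, 1.58 and 1.1999 in shKmt2f libraries and 2.46, 1.76 and 2.89 in control libraries. For complex V it was 0.0906, 0.0954, 0.113 and 0.0985 in shKmt2f libraries and 0.208, 0.133 and 0.263 in control libraries. In both the groups were apart. The ranges overlapped for complex I, at 1.27 to 1.76 in shKmt2f libraries and 1.69 to 2.85 in control libraries, and for complex IV, at 0.305 to 0.378 in shKmt2f libraries and 0.361 to 0.556 in control libraries.

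**Figure D5:**
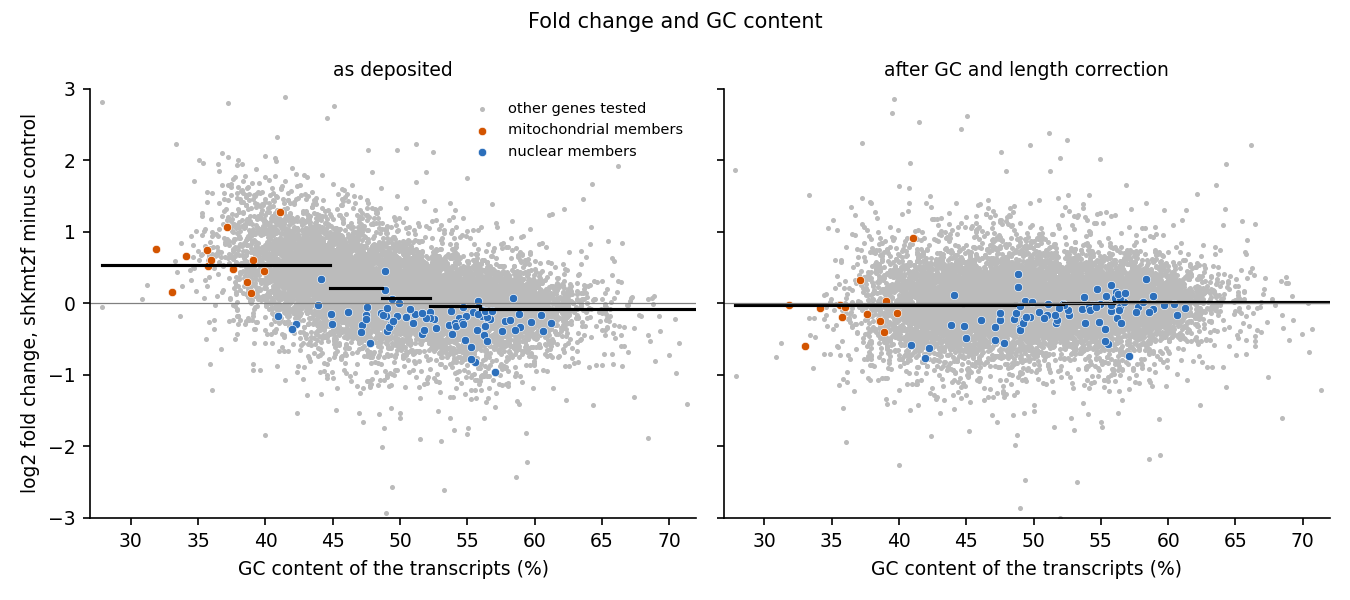
Log2 fold change (shKmt2f minus control) against the GC content of the transcripts (%) for 12002 tested genes with the members in colour, as deposited (left) and after correction of each library for GC content and length (right); black bars are medians of quintiles of all genes by GC content. As deposited the lowest quintile has a median of 0.53 and the highest one of -0.07; after correction the mitochondrial median is -0.06 and the nuclear median -0.10.

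The corrected values weighed differently on the genomes. The mitochondrial median was -0.24 after the GC correction and -0.06 after that for GC content and length, with 0 members called in either. The nuclear median was -0.27 after the GC correction, with 2 called lower (Atp5c1 and Atp5f1), and -0.10 after that for GC content and length, with 4 called lower (Atp5c1, Atp5f1, Sdha and Uqcrb), and after the GC correction the median of all genes was -0.01. A correction of this kind also removes any change that itself follows GC content, so it does not say which of the values holds.

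Genes that assemble, feed and maintain the chain were counted on further lists, with the same test and the same backgrounds. Of 14 tested complex I assembly factors 2 fell and 0 rose (1 at an unadjusted p under 0.05). The 2 were Ndufaf5 with 6.82 TPM in shKmt2f cells and 11.0 TPM in control cells (means, limma adjusted p = 0.0204) and Ndufaf2 (limma adjusted p = 0.0413). Of 34 assembly factors of complexes II to V 3 fell and 1 rose. Sdhaf4, which helps to assemble succinate dehydrogenase, averaged 20.1 ± 2.0 TPM in shKmt2f cells and 39.6 ± 6.1 TPM in control cells (SD, n = 4 and n = 3, limma adjusted p = 0.0117). Coa3, a cytochrome c oxidase assembly factor, averaged 124 ± 16 TPM in shKmt2f cells and 196 ± 13 TPM in control cells (SD, n = 4 and n = 3, limma adjusted p = 0.0181). Uqcc2 of complex III also fell (limma adjusted p = 0.0445), and Coa5 of complex IV rose (limma adjusted p = 0.0324).

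The list of 18 mobile carriers and coenzyme Q genes also held Ndufa4l2, which is neither, and Cyc1 and Ndufab1, whose names the member rule does not match. On this list Ndufa4l2 fell, as above, and Etfdh, which passes electrons of fatty acid oxidation to coenzyme Q, rose (limma adjusted p = 0.0354). Cyc1 and Ndufab1 did not pass (limma adjusted p = 0.159 and 0.0734). Of 23 genes of mitochondrial DNA copying and transcription 2 rose and 0 fell (1 at an unadjusted p under 0.05). Pnpt1, an RNA-degrading enzyme of mitochondria, was at 14.1 ± 0.6 TPM in shKmt2f cells and 6.04 ± 3.14 TPM in control cells (SD, n = 4 and n = 3, limma adjusted p = 0.0247), and Mtpap, the mitochondrial poly(A) polymerase, also rose (limma adjusted p = 0.0451). The mitochondrial transcription factor Tfam averaged 35.5 TPM in shKmt2f cells and 29.6 TPM in control cells and did not pass (limma adjusted p = 0.159). Of 9 nuclear regulators of biogenesis 2 rose, Gabpa and Gabpb1, the subunits of the ETS-type factor named above (limma adjusted p = 0.0409 and 0.0431). Gabpa averaged 10.9 TPM in shKmt2f cells and 5.17 TPM in control cells. After the correction for GC content and length 0 of the 9 were called (limma adjusted p = 0.120 for Gabpa and 0.607 for Gabpb1). Nrf1 was at 50.1 TPM in shKmt2f cells and 51.0 TPM in control cells (limma adjusted p = 0.935).

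Of 19 tested genes of the citric acid cycle 2 rose, Idh3a and Dlat (limma adjusted p = 0.0342 and 0.0417), and 0 fell (1 at an unadjusted p under 0.05). Of 20 genes of mitochondrial fission, fusion and cristae Opa1, the inner membrane fusion GTPase, and the protease Yme1l1 rose, while the cristae protein Chchd6 fell (limma adjusted p = 0.0356, 0.0371 and 0.0208). Of 24 import genes 2 rose, Tomm70a and Hspa9, and 2 fell, Timm17a and Timm17b. Of 76 mitochondrial ribosome genes 4 fell and 0 rose (5 at an unadjusted p under 0.05), led by Mrpl21, Mrpl42 and Mrpl46. The medians of these lists of mitochondrial genes lay between -0.13 and 0.19 on the log2 scale, against 0.10 over all genes tested. Among the genes named from these lists as risen, only Pnpt1 and Opa1 kept their call after the correction for GC content and length. Their limma adjusted p was then 0.0386 and 0.0499. Of the named genes that fell, Ndufaf2, Uqcc2, Timm17b and Mrpl46 lost their call with it.

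Markers of other cell types differed in level. None of the 7 erythroid markers had a transcript in the tables used here, 1 of 8 microglial markers had (C1qa, at most 1.54 TPM in shKmt2f and 1.10 TPM in control libraries), and lens markers and astrocyte markers each summed to under 1 TPM in every library. Of the pigment epithelium markers Dct rose (3.79 TPM in shKmt2f and 2.07 TPM in control cells, means, limma adjusted p = 0.0384) and Lrat was at or near 0 in both groups. Endothelial and pericyte markers, carried by Kdr and Cldn5, summed to between 73.6 and 110.0 TPM in shKmt2f libraries and between 62.6 and 106 TPM in control libraries. The ranges of this sum overlapped, as did those of the astrocyte sum. The pigment epithelium markers summed to between 3.45 and 5.47 TPM in shKmt2f libraries and between 2.60 and 2.91 TPM in control libraries, without overlap. This sum was carried by Dct, which was not called after the correction for GC content and length (limma adjusted p = 0.0627). Best1, Tyrp1, Pmel and Lrat each overlapped, with the mean higher in shKmt2f cells for Tyrp1 and lower for the others. The lens sum lay between 0.0713 and 0.126 TPM in shKmt2f libraries and between 0.152 and 0.436 TPM in control libraries, also without overlap. The pericyte marker Cspg4 was under the level tested, with means of 0.0122 TPM in shKmt2f and 0.0830 TPM in control cells. Its groups did not overlap. Pdgfrb, also a pericyte marker, had the higher mean in shKmt2f cells, at 1.28 TPM against 0.721 TPM in control cells. It overlapped and did not pass (limma adjusted p = 0.207). The pericyte marker Des, likewise under the level tested, averaged 0.117 TPM in shKmt2f and 0.130 TPM in control cells, with overlap.

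In the authors' deposited table, which tests single transcripts, 10 of 171 coding transcripts of nuclear members had q under 0.05 and a lower level in shKmt2f cells, and 0 had a higher one. Of the 13 mitochondrial transcripts 0 had q under 0.05 in the authors' deposited table, where mt-Atp8 had an effect of 0.44 on the natural log scale and a q of 0.119. The share of all transcripts with q under 0.05 was not counted, so neither count can be set against a background.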

How the data were processed

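Transcripts of sorted cells were profiled in 4 shKmt2f and 3 control libraries. The submitters' processing notes name Salmon 0.11.3, sleuth 0.30.0 and the build GRCm38.p6. For each library the authors deposited TPM per transcript, which keeps no depth, and, per the file headers, p-values, q-values and an effect that reads as a natural log (ln), the same in all 7 tables. TPM of 55404 transcripts was summed over the protein-coding transcripts of each of 16143 genes, or over all transcripts of a gene without one. The 12002 genes that reached 1 TPM in 3 or more libraries were tested on log2(TPM + 1) with limma 3.58.1 (R 4.3.3), using trend and robust estimation, two-sided, and Benjamini-Hochberg adjustment at 0.05. Fold changes are shKmt2f minus control and understate changes at low levels. Sums over members have no p. The members and lists were chosen with earlier results of these data known. Genes given in every library were all mitochondrial members, nuclear members past the threshold, the most abundant of each complex, and tissue-restricted Cox isoforms; exceptions are named. Markers and further lists were counted whole, and 1 list is not reported here.

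Positions are from GENCODE vM21 (GRCm38). Copies were annotated pseudogenes matching a coding transcript at 90% identity over 50% of their length (blastn 2.17.0). Alternatives were summing all transcripts, adding copies, median-ratio scaling, leaving the mitochondrial chromosome out of the scaling, per-library loess corrections (span 0.3) for GC content or GC content and length, a replicate block, a pseudocount of 0.1, no filter, and leaving out each library.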

Additional observations from a re-analysis of the deposited data

How the results depend on the processing

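The nuclear sum kept its direction under every alternative run, from -0.30 to -0.14 on the log2 scale when a library was left out. The mitochondrial sum (0.63) became -0.28 with the GC correction and -0.083 with that for GC content and length, and the nuclear to mitochondrial ratio (-0.86) became -0.030 and -0.054. Without single libraries the mitochondrial sum lay between 0.42 and 0.81 and the ratio between -1.11 and -0.67. The 5 nuclear calls became 8 under median-ratio scaling, which moved the median of all genes to -0.02, against 0.10 as deposited, and 2 under the GC correction. They became 2 without the filter, where 16143 genes share the adjustment, and 0 to 9 with a library left out. The 2 mitochondrial calls became 4 with copies added, 0 under median-ratio scaling, 0 under either correction, 1 without the filter, and 0 to 10 with a library left out. Among single genes, mt-Cytb reversed to -0.086 with the GC correction, and mt-Atp8 to -0.24 with it and to -0.025 with length added. The cause of these changes was not tested. The 7 called members kept their call in between 5 (Ndufb10) and 9 (Atp5c1, Cox4i2) of 16 alternatives. Samples that share a replicate number had weakly correlated deviations from their group means (0.0735, 0.0597 and 0.0561). Pairs of unlike number lay between -0.176 and 0.109. With group means taken over so few libraries, these values do not say whether same-numbered samples share a culture or batch. With the replicate block, to which shKmt2f replicate 4 adds nothing, 4 nuclear and 3 mitochondrial members were called and the sums and ratio differed by -0.24, 0.63 and -0.87. Depth is unknown, so members of low level, such as Cox7a1, are uncertain to an extent the tables do not show. Of 32 values checked for a library far from its group, 0 were.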
